A study of Sus scrofa with 36 samples.

Results

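Bile acids are made from cholesterol in hepatocytes, conjugated to an amino acid, pumped into bile, recovered in the intestine and taken up again by the liver. The nuclear receptor FXR senses bile acids in the hepatocyte and induces SHP, a repressor that lowers transcription of the synthesis enzymes, while it raises that of the export pump. The genes described here are 9 members of this circuit in pig liver: the synthesis enzymes CYP7A1, CYP8B1 and CYP27A1, the conjugating enzyme BAAT, the transporters ABCB11, ABCC2 and SLC10A1, and the regulators NR1H4 (FXR) and NR0B2 (SHP). Members were taken by name: a probe belonged to a gene when its gene name, RefSeq accession or description gave that gene, and it was kept when the scanner placed it well above background on 6 or more of 36 arrays. Of 21 such probes, 20 were kept, covering 8 of the 9 genes, out of 44796 kept probes and 11082 gene symbols in all. No probe carried the name of BAAT, which was not analysed here.

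The livers came from 36 growing castrated male pigs, 12 Large White (LW), 12 Creole (CR) and 12 of their cross (F1), housed in a climatic room. In each breed 6 pigs were killed at thermoneutrality (TN, 24 °C) and 6 after heat stress (HS), which the labels give as 30 °C and the growth protocol as 5 days at 32 °C, so that 6 groups of 6 pigs resulted. HS pigs were killed after TN pigs and, by the paper's account, ate less in the heat. The effects of temperature, of lower feed intake, of the day of slaughter and of a few days of age cannot be told apart. Each breed came from 3 blocks of littermates and lived in pens of 3, neither of which the labels give, so the p-values treat littermates and pen-mates as independent. By the paper's design whole pens were killed in TN or in HS, so the pens differ between temperatures.

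Total liver RNA was hybridised to 1-colour Agilent arrays of 60-base probes, and levels below are log2 normalized signals. In bulk tissue, fewer cells of a type and less RNA per cell cannot be told apart. The arrays had median spot signals of 70.0 to 92.0 intensity units over local backgrounds with medians of 18.0 to 25.0. On the first principal component of all kept probes (18.6% of the variance) 5 animals stood apart from their groups, namely LW TN animals 1 and 6, F1 TN animal 3 and F1 HS animals 1 and 2. The other LW animals ran from -44.2 to -24.8 on it, CR from 2.35 to 35.4 and the other F1 from -1.31 to 36.9. The LW animals that stood apart lay toward CR and F1 (-4.83 and -3.04). Those of F1 lay toward LW (-18.1, -17.0 and -21.3). Whether the breed labels of these 5 animals hold was not tested. The label of liver held: all 6 hepatocyte markers (ALB, TTR, APOA1, APOA2, TF, SERPINC1) were measured. The log2 of their summed signals (the summed level) was 20.76 to 20.95 over the 36 animals. Quantile normalization gives equal ranks equal values on every array, so the span of such bright probes does not measure hepatocyte content. A difference passed the test when its Benjamini-Hochberg adjusted p in limma, over all 44796 probes, was under 0.05.

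Probes of one gene differ in brightness, and so only differences between animals at the same probe were compared. The sequences of 5 of the probes described below are shown, since several genes gave different answers at different probes. CYP7A1 probe 1 and ABCC2 probe 4, which differed from probe 2 of their gene, are not printed. They are printed 5′ to 3′ as the array design lists them, with no base marked.
CYP7A1 probe 2: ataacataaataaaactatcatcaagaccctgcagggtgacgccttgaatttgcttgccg
ABCB11 probe 2: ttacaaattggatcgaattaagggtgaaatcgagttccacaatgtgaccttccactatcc
ABCC2 probe 2: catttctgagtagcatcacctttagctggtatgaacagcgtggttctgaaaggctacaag
NR0B2 probe 1: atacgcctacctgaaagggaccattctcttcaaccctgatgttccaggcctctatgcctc
NR0B2 probe 2: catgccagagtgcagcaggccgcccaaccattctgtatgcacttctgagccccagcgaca
No other probe of the array shared a stretch of 30 bases with any of these 5 sequences.

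Counted together, 0 of the 20 probes passed between HS and TN, where 0.859% of all kept probes did. Before adjustment 4 of 20 had a p under 0.05 in limma (both CYP7A1 probes and NR1H4 probes 1 and 2), against 13.1% of all probes. Of the 20 differences 11 were positive and 9 negative, with a median of 0.02 beside 0.0011 over all probes. Between CR and LW 5 of 20 probes passed (25.0%), all higher in CR, where 26.5% of all probes passed, 13.6% of them higher. Between F1 and LW 5 of 20 passed (25.0%), 4 higher and 1 lower in F1, against 18.4% of all probes, 9.12% higher and 9.23% lower. Without the 5 animals that stood apart, 6 of 20 passed (30%) beside 32.3% of all probes. Without slide 3, it was 1 of 20 (5%) beside 3.52%. These shares are near the background, and both comparisons share the 12 LW animals. None of the 20 passed between F1 and CR (1.5% of all probes) or between F1 and the mid-parent mean (1.12%), with 2 and 3 probes at an unadjusted limma p under 0.05 (12.5% and 15.2% of all probes).

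Within breeds 0 of 20 probes passed for temperature in LW, CR or F1, where 0, 0 and 0.00893% of all probes did. The unadjusted p was under 0.05 in limma for 1, 5 and 1 of the 20, and for 5.12%, 7.4% and 9.31% of all probes. The interaction called no probe of any gene, with 1 of the 20 at an unadjusted p under 0.05 beside 3.74% of all probes.

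**Figure D1:**
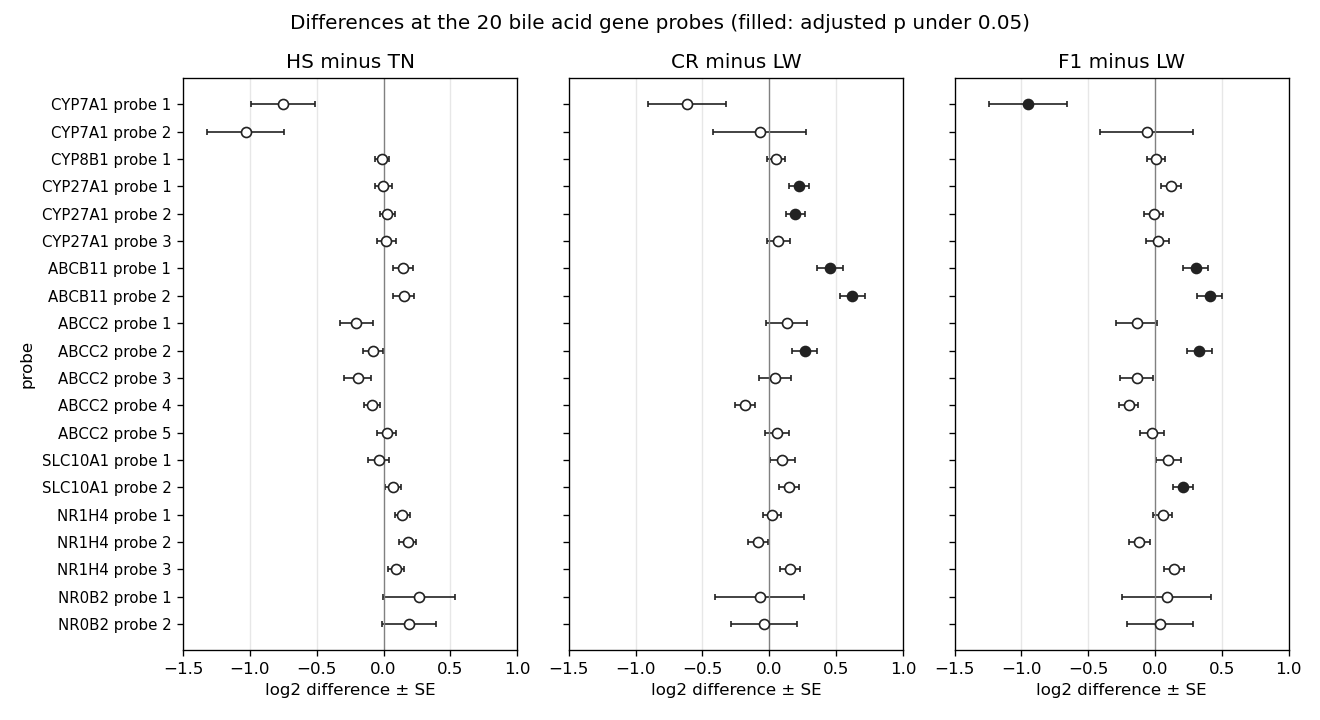
Log2 differences (horizontal axis, points ± SE) at the 20 kept probes for HS minus TN, CR minus LW and F1 minus LW. Filled points passed the test: none for HS minus TN, 5 for CR minus LW and 5 for F1 minus LW, with the 2 CYP7A1 probes apart from each other in the breed contrasts.

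CYP7A1, the rate-limiting enzyme of the classical synthesis pathway (chromosome 4, 74343101 to 74372628 in Sscrofa11.1), was the member with the largest difference between temperatures. It was lower in HS than in TN livers at both of its probes, but neither difference passed the test. At probe 1 the level in the 18 TN animals ran from 9.85 through a median of 11.20 to 12.63, and in the 18 HS animals from 7.76 through 10.57 to 11.70. The ranges overlapped, while 16 of 18 HS animals lay below the TN mean of their own breed. The difference was -0.75 ± 0.24 (log2, SE), a fold of 0.593, with an adjusted p in limma of 0.117.

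At probe 2, whose sequence stands above, TN levels ran from 7.98 through 9.74 to 11.15 and HS levels from 6.77 through 8.33 to 10.73. Here 17 of 18 HS animals lay below the TN mean of their breed, although the ranges again overlapped. The difference was -1.03 ± 0.28, a fold of 0.489, with a limma adjusted p of 0.0681.

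The mean was lower in HS in each breed at each probe. In LW the difference was -0.93 at probe 1 and -0.99 at probe 2, in CR -0.53 and -1.25, and in F1 -0.80 and -0.85. None passed the test (the 3 adjusted p at probe 2 were 0.952, 0.548 and 0.629), nor did the interaction of breed and temperature (adjusted p in limma 0.997 and 0.999 at the 2 probes).

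CYP7A1 also varied more between animals of one group than nearly any other transcript. From the lowest to the highest animal the signal differed 29.2-fold at probe 1 and 20.8-fold at probe 2. The SD within groups was 0.77 and 0.93 on the log2 scale, at the 99.1 and 99.5 percentiles of all kept probes, whose median SD was 0.19. The lowest animal at both probes was F1 HS animal 6 (7.76 and 6.77), and the highest HS animal at both was F1 HS animal 5 (11.70 and 10.73). Animals of this 1 heat-stressed group thus spanned the whole F1 range at probe 1, as the plot of CYP7A1 by animal shows.

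**Figure D2:**
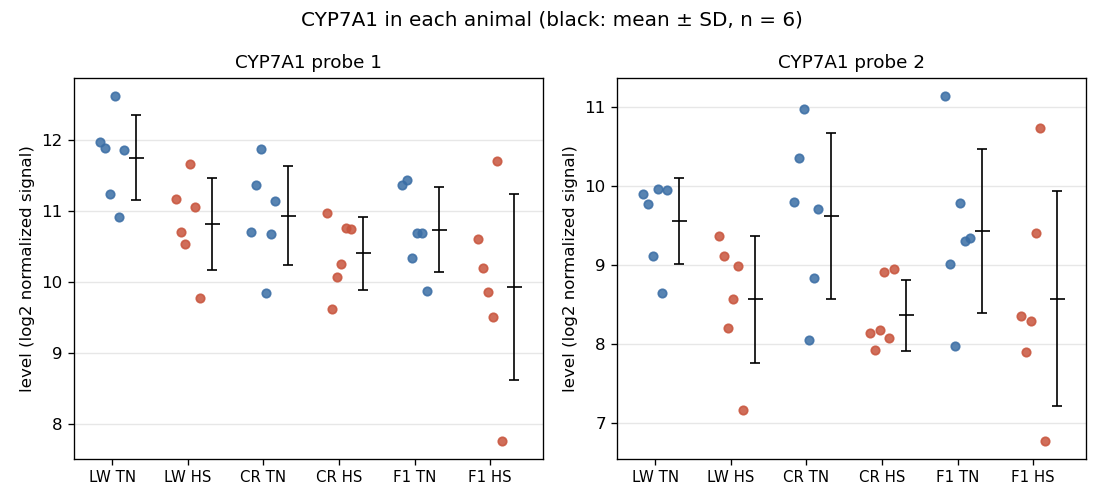
CYP7A1 level (log2 normalized signal, vertical axis) in each of 36 pigs at its 2 probes, by breed and temperature (blue TN, red HS; black bars, mean ± SD, n = 6). Group means were lower in HS than in TN in all 3 breeds, with overlapping ranges, and F1 HS held both the lowest animal (7.76 and 6.77) and the highest HS animal (11.70 and 10.73).

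Arrays lay on 5 slides, each of which held TN and HS in equal numbers. Within slides 2, 3 and 5 the breed-adjusted difference between HS and TN at CYP7A1 was -1.02, -1.55 and -1.63 at probe 1, and -1.82, -0.85 and -2.12 at probe 2. Within slide 4 it ran the other way, at 0.48 and 0.74. Slide 1, with 4 arrays, held TN animals of LW only and HS animals of CR and F1 only, and gave no such value. Without slide 4, probe 2 passed the test (-1.45, limma adjusted p = 0.0266). It also passed without CR TN animal 4 (-1.12, 0.0442), without F1 TN animal 3 (-1.13, 0.0484) or without F1 HS animal 5 (-1.17, 0.0246).

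Between breeds the CYP7A1 probes disagreed. At probe 1 the level ran from 9.79 through 11.21 to 12.63 in LW, from 9.63 through 10.73 to 11.87 in CR and from 7.76 through 10.48 to 11.70 in F1. The F1 level was lower than the LW level by -0.95 ± 0.29 (fold 0.518, limma adjusted p = 0.0214), with 11 of 12 F1 animals below the LW mean at their temperature. The CR level differed from LW by -0.62 ± 0.29, which did not pass (adjusted p 0.117). At probe 2 the same differences were -0.06 ± 0.35 for F1 and -0.07 ± 0.35 for CR (limma adjusted p 0.929 and 0.909).

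The level at probe 1 less that at probe 2 was 2.22 ± 0.41 (SD, n = 12) in LW, 1.68 ± 0.62 in CR and 1.34 ± 0.85 in F1. Over the 36 animals the 2 probes had a Pearson correlation of 0.71, given as a description. The F1 call at probe 1 was lost without slide 2 (-1.05, adjusted p 0.0591), slide 3 (-0.94, 0.0893) or slide 5 (-0.71, 0.079).

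CYP8B1, the enzyme that sets the share of cholic acid (chromosome 13, 26330233 to 26331738), was close to the background of this array. Its kept probe lay well above background on 8 of 36 arrays and never on more than 2 of 6 in a group, in F1 TN on 0 of 6, and its other probe on 2 arrays. Levels at the kept probe ran from 5.03 to 5.62, and no comparison passed the test. The difference between HS and TN was -0.01 ± 0.05, where a dim probe understates any change.

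CYP27A1, the mitochondrial sterol hydroxylase that starts the alternative pathway (chromosome 15, 120809886 to 120852196), was bright at its 3 probes and did not pass the test for temperature. Its differences between HS and TN were -0.00046 ± 0.06, 0.03 ± 0.06 and 0.02 ± 0.07. It was higher in CR than in LW at 2 of 3 probes. At probe 1 LW levels ran from 15.41 through 15.89 to 15.96 and CR levels from 15.57 through 16.06 to 16.34, with 11 of 12 CR animals above the LW mean at their temperature. The difference was 0.22 ± 0.07 (limma adjusted p = 0.0261) at probe 1 and 0.20 ± 0.07 (0.0408) at probe 2, whereas probe 3 gave 0.07 ± 0.09 (0.606). Both calls were lost in the authors' own normalized table (0.16, adjusted p 0.155, and 0.13, adjusted p 0.199). The call at probe 1 was also lost without slide 1, 3 or 4 (limma adjusted p up to 0.15). It was lost in 3 of the 36 fits that left out 1 animal. The call at probe 2 was lost without slide 1, 2, 3 or 4 (limma adjusted p up to 0.14) and with no filter on dim probes (0.0513). It was lost in 12 of the 36 fits that left out 1 animal.

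ABCB11, the bile salt export pump of the canalicular membrane (chromosome 15, 75402296 to 75487092), was the member that differed most clearly between breeds. It was higher in CR than in LW, and in F1 than in LW, at both probes. At probe 2 LW levels ran from 8.67 through 8.80 to 9.03, CR levels from 9.07 through 9.45 to 9.81 and F1 levels from 8.52 through 9.26 to 9.77. All 12 CR animals lay above all 12 LW animals, which was the case in one direction or the other for 208 of the 44796 kept probes (0.464%), while F1 overlapped both. CR exceeded LW by 0.62 ± 0.09 (fold 1.54, limma adjusted p = 1.1e-05) and F1 exceeded LW by 0.41 ± 0.09 (fold 1.33, limma adjusted p = 0.00316).

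At ABCB11 probe 1 LW ran from 12.76 through 13.04 to 13.19, CR from 13.06 through 13.41 to 13.97 and F1 from 12.88 through 13.38 to 13.68. The breeds overlapped here, with all 12 CR animals above the LW mean at their temperature. CR exceeded LW by 0.45 ± 0.09 (fold 1.37, limma adjusted p = 0.000565), and F1 exceeded LW by 0.30 ± 0.09 (fold 1.23, limma adjusted p = 0.0229). F1 was below CR by -0.15 ± 0.09 and -0.21 ± 0.09 at the 2 probes, which did not pass (limma adjusted p 0.566 and 0.311). With all animals F1 was not distinguished from the mid-parent mean (0.08 ± 0.08 and 0.10 ± 0.08). Without the 5 animals that stood apart, probe 2 passed against that mean, where 17% of all probes did.

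**Figure D3:**
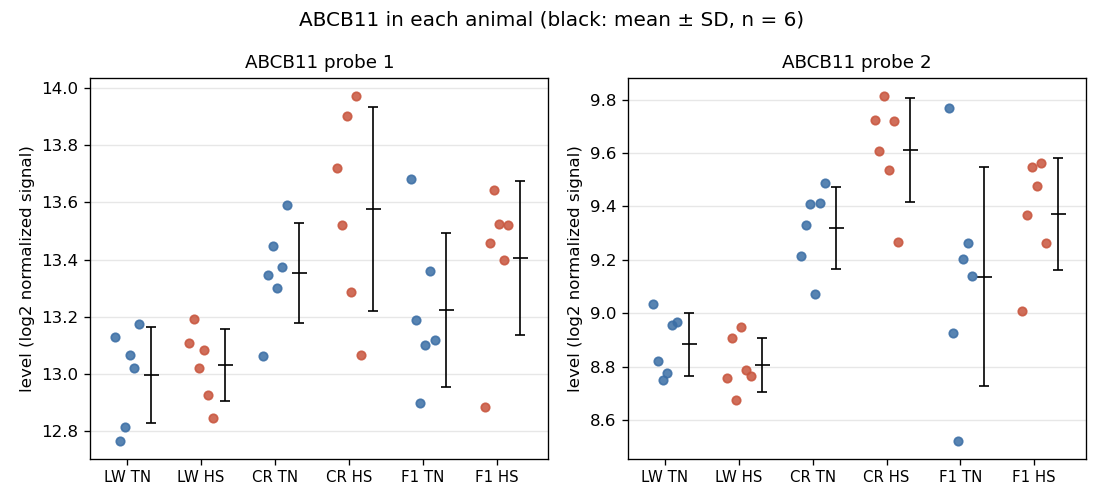
ABCB11 level (log2 normalized signal, vertical axis) in each of 36 pigs at its 2 probes, by breed and temperature (blue TN, red HS; black bars, mean ± SD, n = 6). At probe 2 every CR animal, from 9.07 upwards, lay above every LW animal, which reached at most 9.03.

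The excess of CR over LW at ABCB11 held on each slide that could be fitted. Within slides 2 to 5 it was 0.37, 0.56, 0.34 and 0.53 at probe 1, and 0.63, 0.77, 0.62 and 0.63 at probe 2. Without the 5 animals that stood apart it was 0.50 and 0.67, and the excess of F1 over LW became 0.44 and 0.56. The excess of F1 over LW did not pass at probe 1 without slide 2 (0.21, adjusted p 0.21), slide 3 (0.32, 0.102) or slide 5 (0.29, 0.0512), nor without F1 TN animal 1 (0.26, 0.0511) or in the authors' own normalized table (0.21, 0.0719). It did not pass at probe 2 without slide 2 (0.30, 0.0559).

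Between temperatures ABCB11 differed by 0.15 ± 0.08 at both probes (limma adjusted p 0.423 and 0.400). At probe 2 the HS mean was above the TN mean in CR by 0.29 and in F1 by 0.24, and below it in LW by 0.08, none of which passed. The smallest unadjusted p of the interaction for this gene was 0.0994, with an adjusted p in limma of 0.995.

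ABCC2, which exports conjugated bilirubin and sulphated or glucuronidated bile acids into bile (chromosome 14, 110955698 to 111038898), gave no single answer over its 5 probes. Probe 2 was higher in CR than in LW by 0.26 ± 0.09 (limma adjusted p = 0.0312) and in F1 than in LW by 0.33 ± 0.09 (0.0121). There LW levels ran from 9.50 through 9.69 to 10.02, CR levels from 9.43 through 10.06 to 10.48 and F1 levels from 9.79 through 10.04 to 10.43. Probe 4 lay the other way, at -0.18 ± 0.07 for CR and -0.20 ± 0.07 for F1 (limma adjusted p 0.0696 and 0.0575), and the remaining 3 probes lay between -0.14 and 0.13.

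Probes 1 and 3 of ABCC2 followed each other over the animals (Pearson correlation 0.91), whereas probes 2 and 4 did not (0.02). All but the dimmest ABCC2 probe were lower in HS than in TN, by -0.08 to -0.20, and none of these passed. The CR call at probe 2 was lost without slide 1, 3 or 4 (adjusted p up to 0.213) and the F1 call without slide 2, 3 or 4 (adjusted p up to 0.0621).

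SLC10A1 (NTCP), which takes bile acids up from the blood (chromosome 7, 93400037 to 93421989), did not pass in any comparison at its bright probe. Its level there ran from 13.94 to 14.90 over the 36 animals, and HS differed from TN by -0.04 ± 0.08. A dim second probe, tied to the gene only through its description, was higher in F1 than in LW by 0.21 ± 0.07 (limma adjusted p = 0.0434). The 2 probes were not alike over the animals (Pearson correlation -0.21), and this call was lost in 12 of the 36 fits that left out 1 animal. It was also lost without the 5 animals that stood apart (0.19, limma adjusted p = 0.0583), without slide 2, 3, 4 or 5 (adjusted p 0.0599 to 0.213) and with no filter on dim probes (0.0548).

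NR1H4, the bile acid receptor FXR (chromosome 5, 83607222 to 83732668), lay slightly higher in HS at all 3 probes, without passing. The differences were 0.14 ± 0.06, 0.18 ± 0.06 and 0.09 ± 0.06 (limma adjusted p 0.243, 0.152 and 0.574). At probe 2, the one with the smallest of these p, TN levels ran from 9.12 through 9.42 to 9.84 and HS levels from 9.27 through 9.66 to 9.92. No NR1H4 probe passed between breeds.

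NR0B2, which encodes SHP, the repressor downstream of FXR (chromosome 6, 84225670 to 84228156), was, like CYP7A1, among the transcripts with the widest spread between animals. Its signal differed 12.8-fold at probe 1 and 6.66-fold at probe 2 between the lowest and the highest animal. The SD within groups was 0.79 and 0.61, at the 99.2 and 98.2 percentiles of all kept probes. Its probes ranked the animals alike (Pearson correlation 0.96), and the highest animal at both was F1 TN animal 3, at 9.98 and 8.65.

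In CR, NR0B2 was higher in HS than in TN, without passing the test. At probe 1 the 6 CR TN animals ran from 6.31 through 7.15 to 8.53 and the 6 CR HS animals from 7.30 through 8.56 to 9.79, so the groups overlapped. The difference in CR was 1.29 ± 0.43 (fold 2.44, limma adjusted p = 0.383), and 0.85 ± 0.33 at probe 2 (adjusted p 0.526). Over all breeds it was 0.27 ± 0.27 and 0.19 ± 0.20 at the 2 probes, and at probe 1 ran from -0.02 without slide 5 to 0.70 without slide 4. In LW it was -0.17 and -0.08 and in F1 -0.32 and -0.20, with an interaction p of 0.0224 before and 0.995 after limma's adjustment at probe 1. No NR0B2 difference between breeds passed, all lying between -0.07 and 0.16.

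**Figure D4:**
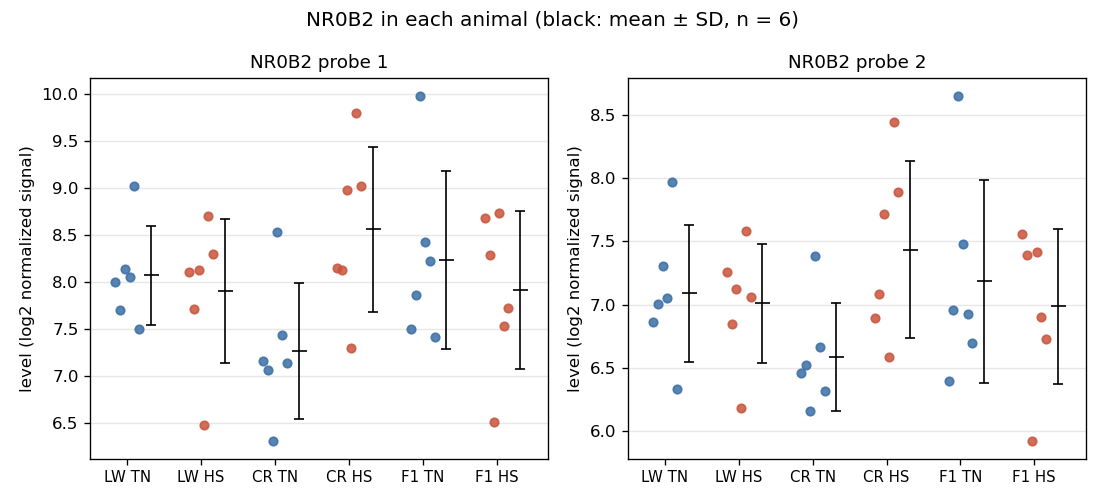
NR0B2 level (log2 normalized signal, vertical axis) in each of 36 pigs at its 2 probes, by breed and temperature (blue TN, red HS; black bars, mean ± SD, n = 6). CR HS animals (7.30 to 9.79 at probe 1) overlapped CR TN animals (6.31 to 8.53), and the highest animal was F1 TN animal 3 (9.98).

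Markers of other liver cells moved with breed. In CR against LW 4 of 5 measured Kupffer cell markers were lower (CD163 by -1.16, C1QB by -0.97), as were 4 of 5 endothelial markers (KDR by -1.13; summed level 12.36 to 13.03 in LW, 12.01 to 12.62 in CR), 4 of 6 lymphocyte markers (CD3D by -0.61) and 1 of 6 stellate and fibroblast markers (RGS5 by -0.79), while 1 of 6 cholangiocyte markers was higher (KRT7 by 0.74) and 0 of 5 erythroid markers passed. The summed Kupffer cell level ran from 14.92 to 15.80 in LW, from 14.14 to 14.83 in CR and from 14.21 to 15.41 in F1. The mean summed lymphocyte level was 11.17 (SD 0.14) in LW, 11.12 (SD 0.11) in CR and 11.06 (SD 0.17) in F1. Its LW and CR ranges overlapped, and the 6 lymphocyte markers differed between CR and LW by -0.61 to 0.11. Of the hepatocyte markers 2 of 6 were lower in CR (APOA1 by -0.12, SERPINC1 by -0.20), with a summed level of 20.87 to 20.95 in LW, 20.79 to 20.94 in CR and 20.76 to 20.87 in F1. In F1 against LW 4 of 5 Kupffer cell, 3 of 5 endothelial, 3 of 6 lymphocyte, 2 of 6 stellate and fibroblast and 2 of 6 hepatocyte markers were lower. Over all probes 12.9% were lower in CR and 9.23% in F1. The part of these markers in the breed differences of CYP7A1, CYP27A1, ABCB11, ABCC2 and SLC10A1 was not tested. Between temperatures no marker of the 7 lists passed.

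Beside the counts in the 3 lists of other pathway genes stand the shares of all probes that passed, 26.5% between CR and LW and 18.4% between F1 and LW. Of 13 other synthesis enzymes 12 were measured, each by its brightest kept probe. None passed between temperatures, the smallest p belonging to SLC27A5, the bile acid CoA ligase (0.09 ± 0.06, limma adjusted p = 0.567), SCP2, a peroxisomal thiolase and sterol carrier (-0.09 ± 0.06), and CH25H, a cholesterol hydroxylase (-0.07 ± 0.07). Between CR and LW 2 were higher and 1 lower. HSD3B7, which acts on the sterol ring after CYP7A1, was lower in CR by -0.53 ± 0.13 (limma adjusted p = 0.00181), with LW levels of 9.37 to 9.89 and CR levels of 8.78 to 9.62, and lower in F1 by -0.46 ± 0.13 (0.0106). ACOT8, a peroxisomal thioesterase, was higher in CR by 0.22 ± 0.06 and HSD17B4, which shortens the sterol side chain, by 0.16 ± 0.06 (limma adjusted p 0.00609 and 0.0267).

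Of 14 other transporters 10 were measured, and none passed between temperatures. ABCB4, the floppase that brings phosphatidylcholine into bile, came nearest. Its TN levels ran from 8.24 through 9.17 to 9.75 and its HS levels from 7.70 through 8.69 to 9.38, with 16 of 18 HS animals below the TN mean of their breed. The difference was -0.50 ± 0.13 (limma adjusted p = 0.0507), made up of -0.19 in LW, -0.54 in CR and -0.76 in F1. SLC51B, a subunit of the basolateral exporter, followed with -0.74 ± 0.36 (limma adjusted p = 0.362), then ABCB1 with -0.11 ± 0.08.

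Between breeds SLC51B was higher in CR than in LW by 1.36 ± 0.44 (fold 2.57, limma adjusted p = 0.0190). Its levels ran from 6.19 through 8.03 to 8.85 in LW and from 5.90 through 9.09 to 12.07 in CR, so that the highest and the lowest animal were both CR. SLCO2B1, an uptake transporter, was lower in CR by -0.65 ± 0.13 and in F1 by -0.37 ± 0.13 (limma adjusted p 0.00034 and 0.0403). ABCG8, a sterol exporter subunit, was lower by -0.25 ± 0.09 in CR and by -0.30 ± 0.09 in F1, and SLCO1A2, an uptake transporter, by -0.32 ± 0.10 in CR.

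Of 14 other regulators 12 were measured. None passed between temperatures, with HNF4A, a hepatocyte transcription factor, at 0.23 ± 0.08 (limma adjusted p = 0.186), NR1I2 (PXR) at 0.14 ± 0.05 and NR1H3 (LXR alpha) at 0.14 ± 0.06. In CR against LW, RXRA, the partner of FXR, was higher by 0.27 ± 0.07 (limma adjusted p = 0.00278), NR1I3 (CAR) by 0.33 ± 0.11 and FGFR4, the receptor for the intestinal signal FGF19, by 0.20 ± 0.07. GPBAR1, the membrane bile acid receptor, was lower by -0.26 ± 0.07. In F1 against LW, RXRA was higher by 0.24 ± 0.07 and NR5A2 (LRH-1), an activator of CYP7A1, by 0.23 ± 0.07, while KLB, the co-receptor of FGFR4, was lower by -0.39 ± 0.12 (limma adjusted p = 0.0268). No gene of these 3 lists passed between F1 and CR or between F1 and the mid-parent mean.

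Whether members varied together between animals of one group was asked with the brightest probe of each gene after group means were removed, which gave 28 pairs over 36 animals. None passed a two-sided permutation test within groups after adjustment over the 28 pairs. The pair with the smallest p was CYP8B1 with ABCB11, at a Pearson's r of -0.47 (permutation p = 0.00616, adjusted 0.172) and a Spearman's rho of -0.47, where CYP8B1 lay near background. CYP7A1 with CYP27A1 had an r of 0.42 (permutation p = 0.0133, adjusted 0.186) and a rho of 0.51 (adjusted 0.101), and an r of 0.47 without the 2 animals farthest from the CYP7A1 median. Within slides 2 to 5 it was 0.45, 0.65, 0.66 and -0.10.

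NR0B2 was paired negatively with 6 of the 7 other members. Its r with CYP7A1 was -0.25 (permutation p = 0.179, rho -0.29), and -0.33 without the 2 animals farthest from the CYP7A1 median. Within slides 2 to 5 this r was 0.04, -0.88, -0.50 and 0.33. With CYP27A1 it was -0.38, with SLC10A1 -0.32 and with NR1H4 -0.33, none past the threshold. With slide means also removed 3 of 28 pairs passed (smallest adjusted permutation p 0.0413): CYP8B1 with ABCB11, CYP27A1 with ABCB11 and SLC10A1 with NR0B2. These permutations ran within groups but across slides, so their p-values do not allow for the fitted slide means. With only group means removed, CYP8B1 with ABCB11 gave -0.23, -0.15, -0.25 and -0.97 within slides 2 to 5. In the same order CYP27A1 with ABCB11 gave 0.62, -0.19, -0.08 and 0.88, and SLC10A1 with NR0B2 -0.53, -0.54, -0.62 and -0.41.

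**Figure D5:**
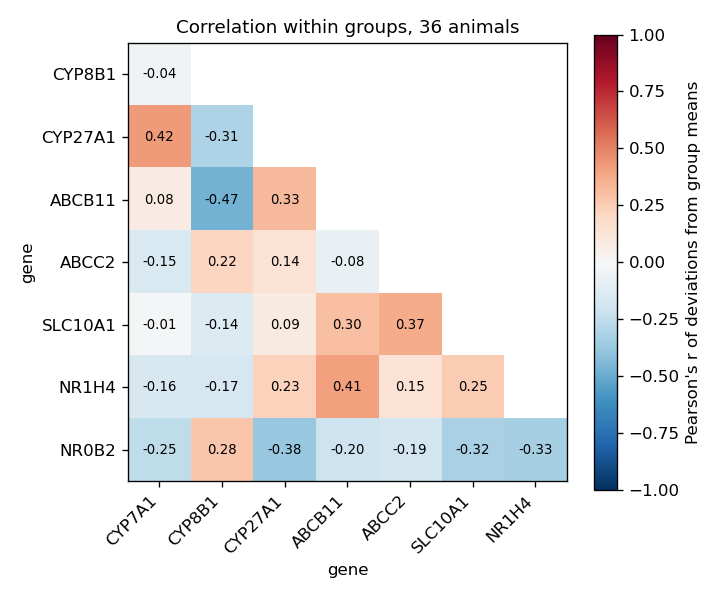
Pearson's r between 8 genes (both axes) over 36 animals, each gene as its brightest probe after group means were removed (colour scale from -1 to 1). None of the 28 values passed after adjustment; the strongest were -0.47 for CYP8B1 with ABCB11 and 0.42 for CYP7A1 with CYP27A1.

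Over the same 36 arrays and 11064 gene symbols with a value on every array, the patterns most like each member were read off as raw Pearson correlations, which share slides and breed. ABCB11 was followed by BCAS1 (0.91), ABCB10 (0.85) and LOC100624648 (0.79), which gave 0.90, 0.85 and 0.63 after group means were removed. CYP7A1 was most like EGLN3 (0.66), TTLL4 (0.64) and PITPNA (0.63), with 0.45, 0.72 and 0.51 after that removal. NR0B2 was most like TOB2 (0.66), LTB4R2 (0.61) and PHKB (0.61), with 0.79, 0.66 and 0.57. For the genes named next the value moved by less than 0.10. For CYP27A1 these were ACADS (0.75), RALY (0.73) and KIF1B (0.71), for SLC10A1 RAPH1 (0.71), THRB (0.70) and AP4B1 (0.65), and for NR1H4 KIAA1551 (0.76), TFR2 (0.65) and RBM41 (0.65). ABCC2 was most like SLC51B (0.61), the exporter subunit described above, then COX17 (0.58) and SLC3A2 (0.57). The dim CYP8B1 was most like ALK (0.61), OSM (0.60) and LOC100520032 (0.59).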

How the data were processed

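The authors deposited the scanner output of each array (Agilent Feature Extraction 10.10.1.1), in which median spot signals are linear intensity values without any normalization across arrays. A second table the authors deposited gives 42051 probes as log2 values after quantile normalization, per their methods, and was used here as an alternative. From the scanner tables the median signal was log2 transformed and quantile normalized over 60306 non-control spots, 107 spots that the scanner marked as non-uniform were treated as missing, and 44796 of 60305 probes (74.3%) that the scanner placed well above background on 6 or more of 36 arrays entered the tests. No spot was saturated, and the number of arrays limits the precision.

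Groups came from the labels, and replicate numbers only name animals. Differences were fitted with limma 3.58.1 in R 4.3.3 over all 36 arrays (breed plus temperature; a means model of 6 groups for the interaction and for temperature within breeds; two-sided, Benjamini-Hochberg over all kept probes). The model was also run on simulated data with independent animals and probes. These held no slide, pen or litter effects, so the run could not check the p-values against such effects. Pen, slaughter day and parents, random effects in the study's model, are not in the labels. Correlations used 100000 permutations within groups.

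The members, the gene lists and the tests were chosen with earlier results of these data known. Named genes were all members with each kept probe, up to 6 other pathway genes with the smallest p past the threshold in a comparison (the 3 with the smallest p of each list between temperatures), and the 3 symbols most like each member. Symbols came from the files and the RefSeq table of Sscrofa11.1, whose gene coordinates are printed. Probes were not mapped to a genome here. The alternatives were other background corrections, signals, normalizations, probe filters, array weights, slide as a block, 1 value per gene, and fits without each array, each slide or 5 animals that stood apart.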

Additional observations from a re-analysis of the deposited data

Results flagged for a closer look

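Of 120 sets of 6 animals (20 probes in 6 groups), 3 held an animal whose distance to its nearest neighbour, as a share of the group's range, was above Dixon's critical value. Chance gives about 5% of independent sets. The sets here share animals, and several are probes of 1 gene, so the count cannot be set against that share. In F1 HS, animal 1 had the lowest ABCB11 level at probe 1, 12.88 against 13.40 to 13.64 in the other 5 (share 0.677). In LW TN, animal 6 had the highest NR1H4 level at probe 1, 11.72 against 11.27 to 11.43 (share 0.641), and at probe 3, 9.04 against 8.46 to 8.64 (share 0.683). Both animals are among the 5 that stood apart from their groups over all probes.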

How the results depend on the processing

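No paired analysis was possible because the replicate numbers only name the animals and the labels give no litter. The excess of CR over LW at both ABCB11 probes passed under every alternative run. Between HS and TN the count of 0 became 1 (CYP7A1 probe 2) without slide 4 (0.156% of all probes), and ranged from 0 to 1 when 1 animal was left out (1 without CR TN animal 4, F1 TN animal 3 or F1 HS animal 5). Between CR and LW the 5 calls became 3 of 19 in the authors' table, where 27.9% of all probes passed. With 1 value per gene they became 1 of 8 (ABCB11), beside 26.5% of all genes. Without slide 1, 3 or 4 they became 2 (all probes: 26.5% in the full fit, then 24.4%, 12.7% and 17.6%). Without slide 5 they became 8 (25.2%). When 1 animal was left out the count ranged from 2 (without CR HS animal 1 or LW HS animal 6) to 6. Between F1 and LW the 5 calls became 2 of 8 with 1 value per gene, beside 17% of all genes. They became 0, 1, 3 and 2 when slides 2, 3, 4 and 5 were left out in turn. The shares of all probes were 18.4% in the full fit, then 9.59%, 3.52%, 10.8% and 13.8%. The count ranged from 4 to 6 without 1 animal. Between F1 and CR the count ranged from 0 to 1 without 1 animal (CYP27A1 probe 2 without CR HS animal 6, -0.25, limma adjusted p = 0.0472). Against the mid-parent mean it was 0 without any 1 animal, and 3 without the 5 animals that stood apart (ABCB11 probe 2, ABCC2 probe 2, NR1H4 probe 3), where 17% of all probes passed. With slide means removed 3 correlations passed, in permutations that did not keep animals within their slides. Fits without a slide also hold fewer animals, and no other cause was tested.

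The differences between HS and TN that changed sign were not called. All but those of NR0B2 lay near 0. CYP27A1 probe 1 became 0.00071 with normexp, 0.00075 with mean signals, 0.016 in the authors' table, 0.026 with array weights, 0.023 without the 5 animals, and 0.016, 0.031 and 0.021 without slides 2, 3 and 5 (-0.019 to 0.029 without 1 animal). CYP27A1 probe 2 became -0.023 without slide 4, and probe 3 -0.0027 without the 5 animals and -0.067 without slide 4 (-0.0096 to 0.049 without 1 animal). ABCC2 probe 5 became -0.016 with 75th percentile scaling, -0.0029 in the authors' table and -0.011 without slide 4 (-0.018 to 0.048 without 1 animal). CYP8B1 probe 1 became 0.00043 and 0.019 without slides 2 and 3 (-0.030 to 0.0077 without 1 animal), SLC10A1 probe 1 0.024 without slide 3, and NR0B2, at 0.27 and 0.19 with all animals, -0.019 and -0.054 at its 2 probes without slide 5. The calls at CYP27A1 probes 1 and 2 were also lost with 75th percentile scaling (0.16 and 0.10).

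Over all probes the 385 calls between HS and TN became 70 to 148 without 1 slide and 210 without a breed term, and without the 5 animals the 8222 calls between F1 and LW became 14486, the 674 between F1 and CR 1072 and the 502 against the mid-parent mean 7624. CYP8B1 and ABCC2 probe 5 were too dim for small differences to be seen. SLC10A1 probe 2 was also dim, but well above background on all 36 arrays, and it gave the unstable call between F1 and LW described above.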
